A study of Homo sapiens with 13 samples.

Results

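Expression of 36 genes of DNA replication and the S phase of the cell cycle was followed in human H9 embryonic stem cells that were turned into neurons by inducible NEUROG2. The genes were taken by symbol from a list of replication genes, and all 36 were found in both deposited count tables, of 60500 genes in the doxycycline set and 60554 genes in the FGF2 set. All 36 passed the filter on low counts in the FGF2 set, in which 20142 genes were tested. By role they are 5 regulators of the step from G1 to S, 10 genes of origin licensing, 6 genes of origin firing and the CMG helicase, 8 genes of DNA synthesis and ligation, 4 genes of nucleotide supply and 3 genes that copy chromatin behind the fork.

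Replication starts when the origin recognition complex, CDC6 and CDT1 load the MCM2 to MCM7 helicase onto DNA, which licenses the origin. CDC45 and the GINS complex then join MCM2 to MCM7 to form the active CMG helicase, and DNA polymerases, the sliding clamp PCNA and the DNA ligase follow. Many of these genes are transcribed under the control of E2F factors in dividing cells, and neurons leave the cell cycle for good.

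The cells are a stable derivative of H9, a human embryonic stem cell line, in which doxycycline switches on the neuronal transcription factor NEUROG2. They were grown on matrigel, for 2 days in E8 stem cell medium and afterwards in 3N neural medium, and RNA of 1 well per library was sequenced. The FGF2 set has 4 groups of 2 libraries, all of which received 1 µg/ml doxycycline from the start. Day 12 FGF2 cells had 6 days of doxycycline and then 6 days of 20 µg/ml FGF2 without doxycycline, and day 12 control cells had 6 days of doxycycline and then 6 days of 3N medium alone. Day 6 FGF2 cells had doxycycline and 20 µg/ml FGF2 together for 6 days, and day 6 control cells had doxycycline alone for 6 days. The doxycycline set has 5 groups of 1 library: cultures taken at day 0, on days 5 and 11 under continuous 1 µg/ml doxycycline, and on the same days without it. The titles name the cells hES-N1 in the doxycycline set, and hES-N2G1 for every replicate 1 and hES-N2G2 for every replicate 2 of the FGF2 set, while the source names give hES-N1 throughout. The labels do not say whether these names stand for separate lines, clones or cultures, so p-values measure only the spread between these libraries. The descriptions of the day 12 control libraries give 6 days of growth, while their titles and listed periods give 12, and late FGF2 is labelled both as days 6 to 12 and as days 7 to 12.

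Totals were 22802501 to 30014661 counts per library in the FGF2 set and 28443657 to 47159475 in the doxycycline set. Levels are given as CPM, counts scaled to 1000000 per library after TMM normalization. NEUROG2 itself was at 1564 and 1018 CPM with doxycycline on days 5 and 11 and at 0.456 to 6.26 CPM in the 3 libraries without it. It was at 54.7 and 49.3 CPM in the day 12 control libraries, against 7708 and 7544 CPM in the day 6 control libraries. The 12 neuron markers summed to 20979 and 23254 CPM with doxycycline on days 5 and 11, against 105 to 386 CPM in the 3 libraries without it, and to 26137 and 26179 CPM in day 12 control cells, against 13564 and 14174 CPM in day 6 control cells. The stem cell markers POU5F1 and NANOG were at most 0.0859 CPM in the 4 control libraries of the FGF2 set. Other markers on the stem cell list remained expressed. The list summed to 350 and 366 CPM in day 6 control libraries and 144 and 157 CPM in day 12 control libraries. The day 5 library without doxycycline stood apart, with 15.0% of its counts from mitochondrial genes (4.29% to 7.17% in the other 4 libraries of its set) and 949 CPM of fibroblast and mesenchyme markers (24.5 to 253 CPM). The 2 day 6 FGF2 libraries differed from each other by a chi-square of 21.2 per degree of freedom, against 3.02 to 3.46 within the other 3 groups. Day 5 ratios are therefore also given against the day 0 library where they differ most, and calls that changed without a day 6 FGF2 library are named.

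The sequences just before the genes' starts show what many of these genes share. RefSeq promoter windows on GRCh38.p14, from 250 bases before to 50 bases after a gene's start, were at hand for 32 of the 36 genes. The letters TTTCCCGC, TTTCGCGC, TTTGCCGC or TTTGGCGC, forms of the E2F binding motif, were searched on both strands, and matches may overlap. They were found in the windows of 19 of the 32 genes (59.4%) and of 1090 of all 27305 genes with a window (3.99%). The 7-letter core without the first T was found for 27 of the 32 genes (84.4%) and 15.3% of all genes. The letters CCAAT, the core of the NF-Y motif, were found for 20 of the 32 (62.5%) and 39.7% of all genes. The letters TTTGAA or TTCGAA, forms of the CHR motif of genes expressed late in the cell cycle, were found for 2 of the 32 (6.25%) and 19.5% of all genes. A match is a run of letters and was not tested as a binding site.

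Shown are 8 windows, each from 160 bases before to 20 bases after the start and read 5′ to 3′ on the gene's strand, with the E2F letters of either strand in capitals. The first 6 belong to the genes with a match and the highest CPM in day 6 control cells. CDC25A and LIG1 were added after their values were seen, because they hold such letters and yet were higher on day 12.
MCM7, minus strand, chr7:100101378-100101557.
MCM7: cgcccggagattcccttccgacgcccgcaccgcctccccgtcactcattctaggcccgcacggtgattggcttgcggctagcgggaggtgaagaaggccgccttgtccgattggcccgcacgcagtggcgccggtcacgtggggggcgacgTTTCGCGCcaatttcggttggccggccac
E2F1, minus strand, chr20:33686366-33686545.
E2F1: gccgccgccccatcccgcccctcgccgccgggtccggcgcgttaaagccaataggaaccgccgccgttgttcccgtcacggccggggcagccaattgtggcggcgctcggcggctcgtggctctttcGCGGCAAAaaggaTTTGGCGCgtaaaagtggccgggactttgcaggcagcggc
PCNA, minus strand, chr20:5126603-5126782.
PCNA: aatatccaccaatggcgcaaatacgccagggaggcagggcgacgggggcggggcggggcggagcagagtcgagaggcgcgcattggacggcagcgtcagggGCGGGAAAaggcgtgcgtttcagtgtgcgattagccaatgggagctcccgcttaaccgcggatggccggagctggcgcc
MCM3, minus strand, chr6:52284723-52284902.
MCM3: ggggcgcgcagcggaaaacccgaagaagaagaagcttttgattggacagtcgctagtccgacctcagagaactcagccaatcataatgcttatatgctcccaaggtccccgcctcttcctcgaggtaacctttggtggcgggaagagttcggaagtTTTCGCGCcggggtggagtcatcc
MCM2, plus strand, chr3:127598251-127598430.
MCM2: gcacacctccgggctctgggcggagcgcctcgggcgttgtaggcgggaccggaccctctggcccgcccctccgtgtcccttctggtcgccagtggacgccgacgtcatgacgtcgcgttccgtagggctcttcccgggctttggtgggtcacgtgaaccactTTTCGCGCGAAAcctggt
MCM6, minus strand, chr2:135876424-135876603.
MCM6: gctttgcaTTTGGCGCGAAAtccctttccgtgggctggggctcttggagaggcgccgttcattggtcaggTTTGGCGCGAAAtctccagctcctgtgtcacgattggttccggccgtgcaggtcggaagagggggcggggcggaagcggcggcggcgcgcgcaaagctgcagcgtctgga
CDC25A, minus strand, chr3:48188398-48188577.
CDC25A: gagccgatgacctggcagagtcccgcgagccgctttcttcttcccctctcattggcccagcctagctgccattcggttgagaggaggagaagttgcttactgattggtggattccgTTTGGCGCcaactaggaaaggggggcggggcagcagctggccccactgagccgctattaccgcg
LIG1, minus strand, chr19:48170325-48170504.
LIG1: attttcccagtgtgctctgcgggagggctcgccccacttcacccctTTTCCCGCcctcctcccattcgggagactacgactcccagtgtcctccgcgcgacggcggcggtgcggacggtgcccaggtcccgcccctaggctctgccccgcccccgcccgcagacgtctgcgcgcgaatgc

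In MCM2 and at both places in MCM6, a match on the gene's strand and one on the opposite strand overlap in a run of 12 bases, and the run in MCM2 is a palindrome. MCM7 and MCM3 each have a second match farther from the start than the stretch shown. Over the 32 genes, the median log2 change from day 12 over day 6, described next, was -1.51 in the 19 genes with the 8-letter match and -0.99 in the 13 without it. The ranges overlapped almost wholly, since E2F2 with a match and TK1 without one both had 0 counts on day 12.

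**Figure D1:**
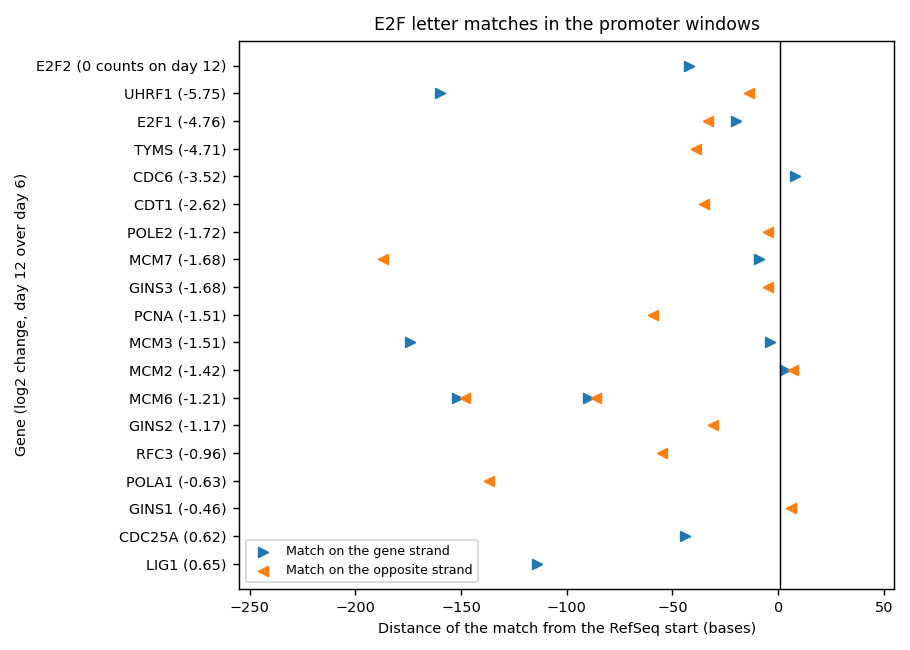
Positions of the 8-letter E2F matches in the promoter windows of the 19 genes that hold one, in bases from the RefSeq start, ordered from the largest fall (top) to the largest rise between day 12 and day 6 control cells, with that log2 change in brackets. Triangles give the strand of the match. The match of CDC25A (+0.62), which rose, lies at -44, among those of genes that fell. The only match of LIG1 (+0.65), which also rose, lies farther out at -114. Of the genes that fell, POLA1 (-137) and MCM6 (-90) have matches on either side of it.

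Between day 6 and day 12 control cells, most replication genes lost most of their transcripts. Of the 36 genes, 30 were lower and 3 higher on day 12 at an adjusted p under 0.05 (edgeR quasi-likelihood test, Benjamini-Hochberg adjustment over all genes tested), and 3 were not called. Of all 20142 genes tested, 64% were called in this comparison, 32.3% lower and 31.7% higher. The median log2 change of the 36 genes was -1.46, against -0.0045 over all genes tested, and 23 of the 36 were called and at least 2-fold lower, 12 of them at least 4-fold lower. The summed level of the 36 genes was 543 and 547 CPM in day 12 control libraries, against 1354 and 1265 CPM in day 6 control libraries. E2F2 and TK1, which had 0 counts on day 12, lie far below the median of -1.46 even at the bounds given below. The median therefore cannot depend on their exact folds. Time in culture and the end of doxycycline changed together and cannot be told apart here, and in bulk RNA fewer cycling cells and less RNA per cell cannot be told apart either. The proliferation marker MKI67, which is no member, had 0.365 and 0.598 CPM in day 12 control libraries, against 110 and 88.1 CPM in day 6 control libraries.

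Among the G1/S regulators, the transcription factors fell furthest. E2F1, an activator of S-phase genes (chr20:33675683-33686404, minus strand), had 3.81 and 6.83 CPM in day 12 control libraries, against 152 and 136 CPM in day 6 control libraries. That is 27.1-fold lower (log2 -4.76 ± 0.19 SE, adjusted p = 5.5e-12), with the groups far apart. E2F2, its close relative, had 0 counts in both day 12 control libraries, against 275 and 244 counts on day 6 (11.8 and 10.5 CPM), which is at least 179-fold lower when the day 12 group is set at a floor of 3 counts. Cyclin E binds CDK2 to start S phase, and both of its genes fell less than the E2F genes. CCNE1 had 3.89 and 4.87 CPM on day 12, against 8.38 and 7.55 CPM on day 6 (log2 -0.86 ± 0.18, adjusted p = 0.00073). CCNE2 had 1.70 and 2.30 CPM, against 4.34 and 4.94 CPM (log2 -1.21 ± 0.25, adjusted p = 0.00054), and 37.1% of its exon bases are shared with other genes, chiefly INTS8. The phosphatase CDC25A, which removes the inhibitory phosphate from CDK2, moved the other way. It had 48.3 and 51.0 CPM on day 12, against 31.5 and 33.2 CPM on day 6 (log2 +0.62 ± 0.09, adjusted p = 2.0e-05).

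The licensing genes fell in 9 of 10 cases, and CDC6, CDT1 and ORC1 fell more than any of the 6 helicase subunits. CDC6, the ATPase that helps load the helicase, had 1.74 and 1.11 CPM in day 12 control libraries, against 18.1 and 14.9 CPM in day 6 control libraries (log2 -3.52 ± 0.21, adjusted p = 8.1e-10). CDT1, which brings MCM2 to MCM7 to the origin, had 1.42 and 1.02 CPM in day 12 control libraries, against 7.78 and 7.34 CPM (log2 -2.62 ± 0.24). ORC1, the largest subunit of the origin recognition complex, had 1.5 and 2.05 CPM, against 8.94 and 7.21 CPM (log2 -2.19 ± 0.21). These 3 genes were each at 8.64% to 22.0% of their day 6 level, and no day 12 value came near a day 6 value. ORC6, a smaller subunit, had 15.5 and 17.0 CPM, against 36.3 and 36.6 CPM (log2 -1.16 ± 0.10).

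The 6 helicase subunits did not move alike. MCM7 had 76.8 and 70.4 CPM in day 12 control libraries, against 235 and 236 CPM in day 6 control libraries (log2 -1.68 ± 0.08, adjusted p = 5.2e-11). MCM5 fell most, with 9.89 and 9.39 CPM on day 12, against 36.5 and 34.6 CPM on day 6 (log2 -1.88 ± 0.10). MCM2 (log2 -1.42 ± 0.10), MCM3 (log2 -1.51 ± 0.10) and MCM6 (log2 -1.21 ± 0.11) lay between 19.9 and 23.9 CPM on day 12, against 45.1 to 64.0 CPM on day 6. MCM4 had 61.1 and 61.4 CPM on day 12, against 61.1 and 53.4 CPM on day 6, and was not called (log2 +0.10 ± 0.09, adjusted p = 0.355). Its groups met, while those of the other 5 subunits were apart.

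All 6 firing genes fell, and CDC45 and MCM10 were nearly lost. CDC45, the helicase cofactor (chr22:19479459-19520612, plus strand), had 0.0811 and 0.128 CPM in day 12 control libraries, against 14.8 and 11.6 CPM in day 6 control libraries. That rests on 5 counts over both day 12 libraries, against 615 on day 6 (log2 -6.92 ± 0.31, adjusted p = 2.4e-11). MCM10, which is needed to activate the helicase, had 0.405 and 0.128 CPM, against 16.4 and 13 CPM (log2 -5.74 ± 0.30). The GINS complex has 4 subunits, and their genes fell to very different levels. GINS4 had 0.568 and 0.854 CPM, against 10.7 and 8.37 CPM (log2 -3.75 ± 0.25), and 23.6% of its exon bases are shared with other annotated transcripts. GINS3 had 4.10 and 3.84 CPM, against 13.4 and 12.0 CPM (log2 -1.68 ± 0.16). GINS2 had 7.87 and 6.96 CPM, against 17.2 and 16.1 CPM (log2 -1.17 ± 0.13). GINS1 had 8.03 and 8.88 CPM, against 13.5 and 9.78 CPM (log2 -0.46 ± 0.16, adjusted p = 0.021), the smallest fall of the 4, and its call was lost without day 6 control replicate 1 (adjusted p = 0.330) or without day 12 control replicate 1 (adjusted p = 0.114).

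The synthesis and ligation genes changed least as a group, with 5 lower, 2 higher and FEN1 not called. PCNA, the sliding clamp, had 26.4 and 25.4 CPM in day 12 control libraries, against 76.5 and 71.3 CPM in day 6 control libraries (log2 -1.51 ± 0.09, adjusted p = 1.5e-09). POLE2, the second subunit of DNA polymerase epsilon, had 0.892 and 1.45 CPM, against 3.44 and 4.25 CPM (log2 -1.72 ± 0.26). Both of these were well under their day 6 values. RFC3 (log2 -0.96 ± 0.10) and RFC4 (log2 -0.56 ± 0.10), subunits of the clamp loader, were at 51.2% and 67.9% of their day 6 means. POLA1, the catalytic subunit of DNA polymerase alpha, had 27.9 and 26.1 CPM, against 43.7 and 40.1 CPM (log2 -0.63 ± 0.10). PRIM1, the primase that works with POLA1, went the other way, with 10.7 and 12.3 CPM on day 12, against 7.43 and 9.57 CPM on day 6 (log2 +0.44 ± 0.15, adjusted p = 0.016). Its call was lost without day 6 control replicate 1 (adjusted p = 0.216) or without day 12 control replicate 2 (adjusted p = 0.132), and 21.6% of its exon bases are shared with NACA and other genes. LIG1, the ligase that seals nicks between Okazaki fragments, had 29.5 and 29.4 CPM on day 12, against 20.3 and 17.3 CPM on day 6 (log2 +0.65 ± 0.10, adjusted p = 6.2e-05). FEN1, the flap nuclease that trims the fragments before ligation, had 30.9 and 30.8 CPM, against 37.1 and 33.6 CPM (log2 -0.20 ± 0.09, adjusted p = 0.075). It was called lower without either day 6 FGF2 library (adjusted p = 0.029 in both cases).

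All 4 nucleotide genes fell, 3 of them to a small part of their day 6 level. Ribonucleotide reductase makes deoxyribonucleotides and has a large and a small subunit. RRM2, the small subunit of S phase (chr2:10120698-10131419, plus strand), had 0.243 and 0.171 CPM in day 12 control libraries, against 69.6 and 61.8 CPM in day 6 control libraries (log2 -8.27 ± 0.26, adjusted p = 5.3e-13). It stood on 10 counts over both day 12 libraries, against 3059 on day 6, so the size of the fold is set by few reads. RRM1, the large subunit, had 55.5 CPM in each day 12 control library, against 83.1 and 81.3 CPM on day 6 (log2 -0.57 ± 0.08). Per kilobase of exon, RRM2 was at 0.0389 CPM on day 12 and RRM1 at 13.3, against 12.3 and 19.7 on day 6. TYMS, thymidylate synthase, had 0.892 and 0.811 CPM, against 24.9 and 20.1 CPM (log2 -4.71 ± 0.21), with 46.6% of its exon bases shared with ENOSF1 and TYMSOS. TK1, the thymidine kinase of S phase, had 0 counts in both day 12 control libraries, against 9.20 and 6.69 CPM on day 6, which is at least 127-fold lower at the floor of 3 counts.

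Among the genes that copy chromatin, UHRF1, which brings the maintenance DNA methyltransferase to new DNA, had 0.324 and 0.341 CPM in day 12 control libraries, against 19.9 and 16.3 CPM in day 6 control libraries (log2 -5.75 ± 0.29, adjusted p = 9.2e-11). The subunits of the histone chaperone CAF-1 stayed closer to their day 6 level. CHAF1A had 10.5 and 12.6 CPM, against 25.0 and 21.0 CPM (log2 -0.99 ± 0.13). CHAF1B had 3.61 and 3.20 CPM, against 5.46 and 4.21 CPM, and was not called (log2 -0.50 ± 0.24, adjusted p = 0.084). It was called lower without either day 12 FGF2 library (adjusted p = 0.040 and 0.038).

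Markers of other cell states moved between the same libraries. The 10 neural progenitor markers, all of them detected, summed to 877 and 939 CPM in day 12 control libraries, against 1681 and 1661 CPM in day 6 control libraries, and the 10 stem cell markers summed to 144 and 157 CPM, against 350 and 366 CPM, with 2 to 4 of them at 0 counts. Their part in the changes of the 36 genes was not tested.

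**Figure D2:**
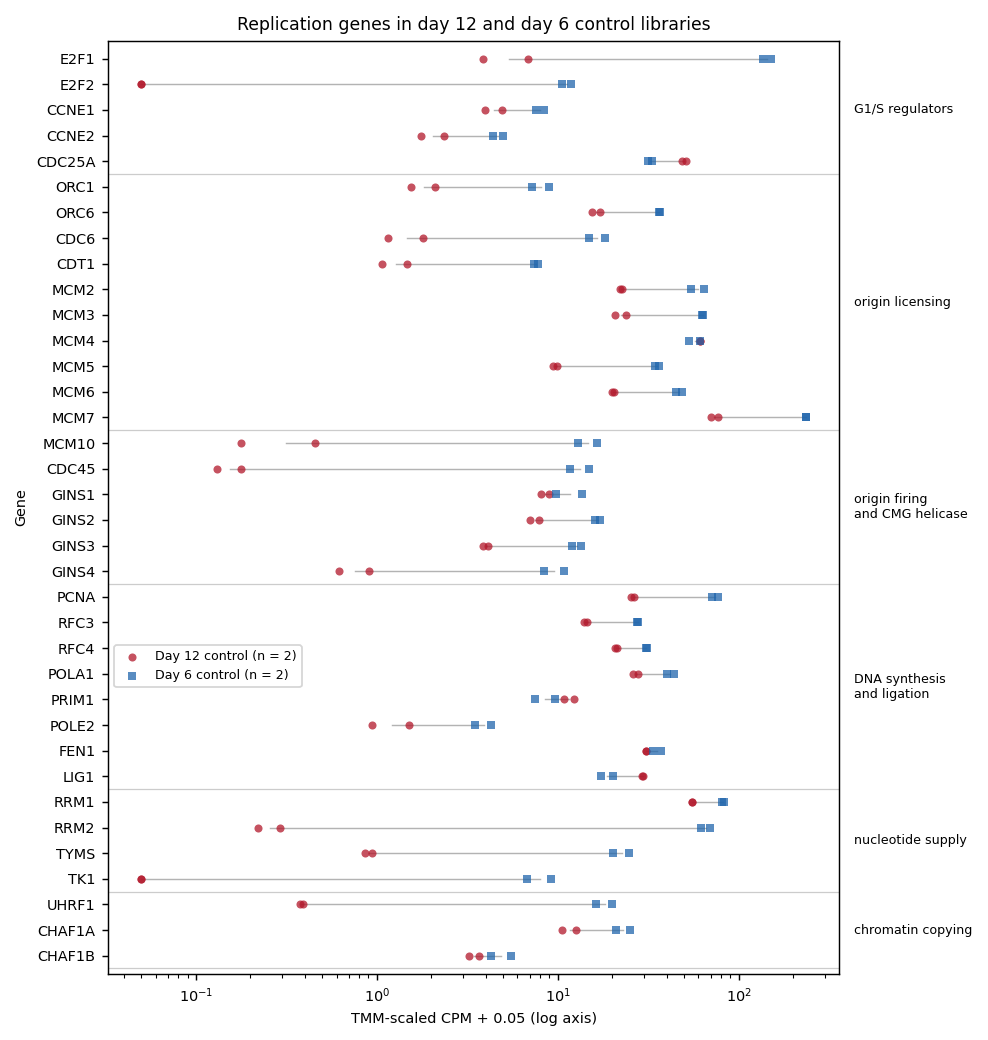
Level of each of the 36 genes in the 2 day 12 control libraries (circles) and the 2 day 6 control libraries (squares), as TMM-scaled CPM plus 0.05 on a log axis, with a line between the group means and the genes ordered by role. Circles lie left of squares for the 30 genes that fell, and MCM4's meet. CDC25A, PRIM1 and LIG1 lie the other way, and E2F2 and TK1 sit at the left edge with 0 counts on day 12.

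Compared per kilobase of exon, with all annotated exons of a gene joined, the order of the 36 genes changed. On day 12, PCNA (17.6 CPM per kilobase) and MCM7 (16.8) led, followed by RRM1 (13.3), FEN1 (12.4) and CDC25A (12.1). On day 6, E2F1 (57.4), MCM7 (53.6) and PCNA (50.2) led, followed by RRM1 (19.7) and MCM3 (17.3). E2F1 thus stood first on day 6 and at 2.13 CPM per kilobase on day 12.

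Other genes of the same pathways came from lists drawn up beside the 36. Calls went both ways in each list except that of E2F, RB and G1/S genes. Named from each list are up to 3 called genes in each direction, those with the highest mean CPM. Of all genes tested, 64% were called (32.3% lower and 31.7% higher), and the numbers called in the origin and firing list and in the nucleotide and chromatin list below are near that share. Of 15 other origin and firing genes, 6 fell and 3 rose. GMNN, which blocks CDT1, fell (log2 -1.52 ± 0.11), as did MCM8 (log2 -0.98 ± 0.18) and WDHD1 (log2 -0.40 ± 0.13), while ORC4 (log2 +0.70 ± 0.08), the kinase CDC7 (log2 +0.91 ± 0.09) and DONSON (log2 +0.60 ± 0.11) rose. CDC7 had 41.6 and 41.9 CPM in day 12 control libraries, against 22.3 and 22.2 CPM in day 6 control libraries. Of 26 other fork enzymes, 16 fell and 4 rose. TOP2A, the topoisomerase of dividing cells, had 0.851 and 1.62 CPM on day 12, against 172 and 146 CPM on day 6 (log2 -7.01 ± 0.24), while TOP1 (log2 -0.29 ± 0.09) and POLD2 (log2 -0.27 ± 0.09) fell a little. POLE (log2 +0.27 ± 0.08), RFC1 (log2 +0.21 ± 0.09) and POLD3 (log2 +0.31 ± 0.12) rose a little. Subunits of 1 enzyme thus stood on both sides, since POLE2 fell and POLE rose, and RFC3 and RFC4 fell and RFC1 rose.

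Of 12 other nucleotide and chromatin genes, 6 fell and 2 rose. Those that fell included NASP (log2 -0.26 ± 0.08), a histone chaperone, and RRM2B (log2 -0.31 ± 0.10), a small reductase subunit used outside S phase. DCK, the deoxycytidine kinase of nucleoside salvage, rose, with 45.0 and 44.0 CPM on day 12, against 22.1 and 21.7 CPM on day 6 (log2 +1.02 ± 0.10), as did DCTPP1 (log2 +0.35 ± 0.11). Of 16 other E2F, RB and G1/S genes, 11 fell and 0 rose, against 32.3% of all genes tested called lower. The median log2 change of this list was -1.81, against -1.46 for the 36 genes, and 8 of its genes were called and at least 4-fold lower. TFDP2, a partner of E2F factors, had 40.2 and 37.1 CPM, against 220 and 208 CPM (log2 -2.47 ± 0.10), and TFDP1 fell less (log2 -0.32 ± 0.08). RB1, the repressor of E2F factors, also fell, with 57.8 and 58.0 CPM, against 121 and 105 CPM (log2 -0.97 ± 0.11).

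The doxycycline set shows the same genes before and without neuronal induction, with 1 library per condition, so its differences have no replicate check and no test. Ratios are given with 95% exact binomial intervals that cover counting error only. A gene was counted as different at 4-fold or more, after 1 CPM was added to both values, if it had at least 10 CPM in either library.

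With doxycycline, all 36 genes were lower than without it on day 5 and again on day 11. On day 5, 18 of the 32 genes at 10 CPM or more were at least 4-fold lower and 0 were higher, against 24.1% of the 12895 genes counted, 11.5% lower and 12.6% higher. On day 11 the count was 25 of 35 lower and 0 higher, against 21.4% of 12655 genes, 9.85% lower and 11.5% higher. The median log2 ratio of the genes at 10 CPM was -2.28 on day 5 and -2.80 on day 11, against 0.23 and 0.16 over all genes counted. Set against the day 0 library instead, which was chosen after the values were seen because the day 5 library without doxycycline stood apart, 24 genes on day 5 and 27 on day 11 were at least 4-fold lower, against 10.4% of all genes counted on day 5 (22.4% in either direction) and 11.9% on day 11 (25% in either direction). The shares of all genes at least 4-fold higher were 12% and 13%, and 0 of the 36 were among them.

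The 10 stem cell markers summed to 5376 CPM at day 0. They summed to 716 CPM with doxycycline on day 5, against 5947 CPM without, and to 228 CPM with doxycycline on day 11, against 1989 CPM without. On day 11 without doxycycline, 7 of the 10 were at least 4-fold lower than at day 0, against 2.46% of all genes counted. That library is thus not one of unchanged stem cells. The part of the markers in these ratios was not tested.

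Of the G1/S regulators, E2F1 had 39.5 CPM at day 0. It had 18.5 CPM with doxycycline on day 5, against 57.7 CPM without, a ratio 3.12-fold lower (2.87 to 3.40). On day 11 it had 5.39 CPM with doxycycline, against 27.2 CPM without, 5.04-fold lower (4.29 to 5.96). E2F2 was at 8.43 CPM at day 0, at 0.363 CPM with doxycycline on day 5, against 5.02 CPM without, and at 0.151 CPM with doxycycline on day 11, against 11.6 CPM without. Both E2F genes were thus lowest with doxycycline on day 11. Against day 0, the day 5 level with doxycycline was 2.14-fold lower for E2F1 (1.96 to 2.33) and 23.3-fold lower for E2F2 (13.9 to 42.0). CCNE1 was 5.30-fold lower with doxycycline on day 5 (4.58 to 6.16) and 2.82-fold lower on day 11 (2.43 to 3.28), and CCNE2 stayed under 4 CPM in all 5 libraries. CDC25A had 37.3 CPM with doxycycline on day 5, against 40.7 CPM without, and by day 11 it had 44.9 CPM with doxycycline, against 48.4 CPM without, after 60 CPM at day 0. It was the least changed of the 36 genes on both days, 1.09-fold lower on day 5 (1.01 to 1.18) and 1.08-fold lower on day 11 (1.00 to 1.16).

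Licensing genes were lower in 8 of 10 cases on day 5 and in 10 of 10 on day 11 by the 4-fold rule. CDT1 had 81.1 CPM at day 0, 1.96 CPM with doxycycline on day 5, against 63.4 CPM without, and by day 11 it had 1.64 CPM with doxycycline, against 41.8 CPM without. That was 32.4-fold lower on day 5 (25.9 to 41.0) and 25.6-fold lower on day 11 (19.5 to 34.2). CDC6 was 11.8-fold and ORC1 10.3-fold lower on day 5, and 21.3-fold and 27.2-fold lower on day 11. Against day 0 the day 5 ratios were larger, 41.4-fold for CDT1, 23.5-fold for CDC6 and 27.4-fold for ORC1. These 3 were again reduced more than any of the helicase subunits, whose ratios were 2.35-fold to 8.96-fold on day 5 and 4.68-fold to 14.7-fold on day 11. MCM3 had 415 CPM at day 0, the highest of the 36 genes there, 30.8 CPM with doxycycline on day 5, against 276 CPM without, and by day 11 it had 21.8 CPM with doxycycline, against 319 CPM without. MCM7 had 339 CPM at day 0, 112 CPM with doxycycline on day 5, against 262 CPM without, and by day 11 it had 57.7 CPM with doxycycline, against 270 CPM without. It was the helicase subunit with the smallest ratio on both days, 2.35-fold lower on day 5 (2.26 to 2.43) and 4.68-fold lower on day 11 (4.45 to 4.92). MCM4, which was not called between day 12 and day 6 in the FGF2 set, was 5.17-fold lower on day 5 (4.89 to 5.46) and 5.81-fold lower on day 11 (5.49 to 6.16). Against day 0, the day 5 ratios of the 6 subunits ran from 3.04-fold for MCM7 to 13.5-fold for MCM3, and 9 of 10 licensing genes were at least 4-fold lower on day 5.

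Of the firing genes, CDC45 had 24.4 CPM at day 0, 1.76 CPM with doxycycline on day 5, against 26.0 CPM without, and by day 11 it had 0.485 CPM with doxycycline, against 19.7 CPM without. It was 14.8-fold lower on day 5 (11.6 to 19.0) and 40.6-fold lower on day 11 (24.8 to 71.5). MCM10 was 12.8-fold and GINS4 8.78-fold lower on day 5, and 33.4-fold and 38.0-fold lower on day 11. GINS3 was reduced least, 2.06-fold on day 5 (1.72 to 2.49) and 3.28-fold on day 11 (2.72 to 3.98). Against day 0, the day 5 level was 16.5-fold lower for GINS4, 9.99-fold for GINS1 (3.78-fold against day 5 without doxycycline), 6.02-fold for GINS2 (3.02-fold) and 18.3-fold for MCM10.

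Of the synthesis and ligation genes, 1 of 8 was at least 4-fold lower on day 5 and 2 of 8 on day 11, and 3 of 8 and 4 of 8 were against day 0. The shares of all genes counted were 11.5% on day 5 and 9.85% on day 11, and 10.4% and 11.9% against day 0. The day 5 count of 1 of 8 is near its share. POLE2 was 8.11-fold lower on day 5 (6.56 to 10.1) and 11.0-fold lower on day 11 (8.48 to 14.6). PCNA had 206 CPM at day 0, 33.6 CPM with doxycycline on day 5, against 73.9 CPM without, and by day 11 it had 18.7 CPM with doxycycline, against 141 CPM without. FEN1, POLA1, RFC3, PRIM1, LIG1 and RFC4 were 1.81-fold to 3.85-fold lower on day 5 and 2.66-fold to 3.65-fold lower on day 11. Against day 0, the day 5 level with doxycycline was 6.13-fold lower for PCNA (5.79 to 6.50; 2.20-fold against day 5 without doxycycline) and 6.19-fold lower for PRIM1 (5.5 to 6.97; 2.49-fold). Their ratios shifted most in this group when the reference was changed, while POLE2 had the largest ratio to day 0, 10.6-fold (8.60 to 13.1). RFC3 was 3.68-fold and FEN1 2.75-fold lower than at day 0. LIG1 and PRIM1, which were higher on day 12 than on day 6, were thus lower in induced than in uninduced cells.

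Of the nucleotide genes, TK1 had 67.4 CPM at day 0, 0.774 CPM with doxycycline on day 5, against 50.4 CPM without, and by day 11 it had 0.757 CPM with doxycycline, against 48.6 CPM without. Its ratios, 65.1-fold lower on day 5 (46.0 to 95.5) and 64.2-fold lower on day 11 (43.3 to 99.5), were nearly equal. RRM2 was 5.75-fold lower on day 5 (5.10 to 6.49) and 34.8-fold lower on day 11 (27.6 to 44.4), and TYMS 10.2-fold lower on day 5 (8.84 to 11.7) and 35.9-fold lower on day 11 (27.6 to 47.4). RRM1 was the least reduced of the 4, 1.36-fold on day 5 (1.28 to 1.44) and 2.69-fold on day 11 (2.56 to 2.83). Against day 0, the day 5 level with doxycycline was 12.3-fold lower for RRM2 (11.0 to 13.8) and 2.84-fold lower for RRM1 (2.70 to 2.98).

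Among the genes that copy chromatin, UHRF1 had 15.0 CPM at day 0, 1.67 CPM with doxycycline on day 5, against 8.98 CPM without, and by day 11 it had 0.788 CPM with doxycycline, against 23.3 CPM without. Its day 5 level with doxycycline was 5.38-fold lower than without and 9.02-fold lower than at day 0. CHAF1A and CHAF1B were 8.21-fold and 10.6-fold lower on day 5 (8.67-fold and 15.5-fold against day 0), and 6.40-fold and 5.64-fold lower on day 11.

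**Figure D3:**
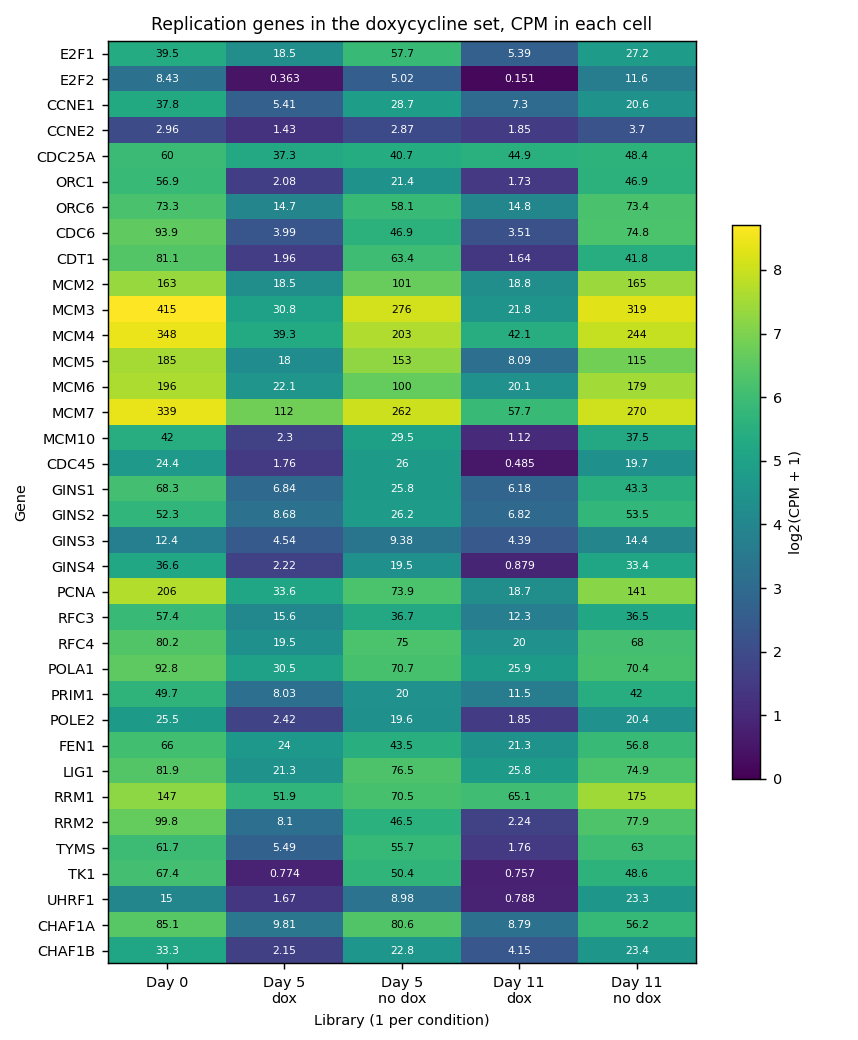
Level of the 36 genes in the 5 libraries of the doxycycline set, 1 library per condition, with the TMM-scaled CPM written in each cell and log2(CPM + 1) as colour. The columns with doxycycline are darker than those without it in nearly every row. CDC25A is the exception, with 37.3 to 60 CPM throughout.

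Little of this changed further between day 11 and day 5 under continued doxycycline. Of 17 genes at 10 CPM or more, 0 passed 4-fold, against 1.96% of the 11465 genes counted (0.741% higher and 1.22% lower), and the median log2 ratio was -0.13, against -0.07 over all genes counted. The genes that were still lower on day 11 included E2F1, at 5.39 CPM on day 11, against 18.5 CPM on day 5, a ratio 3.42-fold lower (2.91 to 4.05). MCM5 had 8.09 CPM on day 11, against 18.0 CPM on day 5, 2.23-fold lower (1.93 to 2.57). RRM2 was 3.61-fold lower (2.80 to 4.71), CDC45 3.64-fold (2.10 to 6.70) and TYMS 3.12-fold (2.33 to 4.24), all from under 10 CPM on day 5. Of the 36 genes, those under 10 CPM included, 11 had a higher and 25 a lower CPM on day 11 than on day 5. The same split was not counted over all genes. The 11 included RRM1, at a ratio of 1.25 (1.18 to 1.33), and CCNE1, at 1.35 (1.12 to 1.62), which both fell in the FGF2 set. They also included the 3 genes that rose between day 6 and day 12 in the FGF2 set. PRIM1 had 11.5 CPM on day 11, against 8.03 CPM on day 5, LIG1 had 25.8 CPM, against 21.3 CPM, and CDC25A had 44.9 CPM, against 37.3 CPM. The sets were sequenced and scaled separately, and doxycycline was continued in this one.

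Without doxycycline the genes stayed within 4-fold of their day 0 level, though most were below it on both days. On day 5, 0 of 34 genes at 10 CPM or more passed 4-fold against day 0, against 1.05% of the 11916 genes counted (0.839% higher and 0.21% lower), but 34 of the 36 were below day 0 and the median log2 ratio was -0.54, against -0.12 over all genes counted. PCNA had 73.9 CPM on day 5 without doxycycline, against 206 CPM at day 0, a ratio 2.79-fold lower (2.67 to 2.92), the largest of the 36. ORC1 was 2.67-fold lower (2.45 to 2.91) and GINS1 2.64-fold lower (2.45 to 2.86), while E2F1 had 57.7 CPM, against 39.5 CPM at day 0. This is the library with the high mitochondrial and mesenchymal share, and the part of those in the ratios was not tested. On day 11 without doxycycline, 0 of 35 genes passed 4-fold against day 0, against 4.57% of the 11996 genes counted (2.11% higher and 2.46% lower), and the median log2 ratio was -0.30, against -0.07 over all genes counted. PCNA was then at 141 CPM, and MCM2, ORC6, GINS2 and TYMS were at 1.00 to 1.02 times their day 0 level. On day 11 against day 5 without doxycycline, 0 of 35 genes passed 4-fold, against 6.98% of the 12193 genes counted (2.34% higher and 4.64% lower), and the median log2 ratio was 0.27, against 0.05 over all genes counted.

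The make-up of the MCM2 to MCM7 messages differed between induced and uninduced cells. The proteins form a ring with 1 copy of each, so their messages can be set side by side per kilobase of exon. In the uninduced libraries MCM3 held 31.6% to 32.8% of the summed level of the 6 genes and MCM7 held 22.2% to 25.9%. With doxycycline MCM7 held 49.8% on day 5 and 37.7% on day 11, and MCM3 held 16.5% and 17.0%. In the FGF2 set MCM7 held 40.8% and 38.2% in day 12 control libraries, against 49.3% and 50.5% in day 6 control libraries, so its share was lower on day 12 in both. MCM4 held 20.5% and 21.0% in day 12 control libraries, against 8.07% and 7.20% in day 6 control libraries. In the doxycycline set MCM4 held 17.3% on day 11 with doxycycline, against 11.0% on day 5 with doxycycline. MCM5 held the smallest share in every induced library, 2.93% to 4.80%, but also at day 0 (7.26%) and on day 11 without doxycycline (5.65%). On day 5 without doxycycline MCM5 held 9.08% and MCM2 8.98%. The ratio of the highest to the lowest of the 6 was 3.66 to 5.59 in uninduced libraries and 10.4 to 14.5 in induced ones. These shares are a description, without a test, and 8.94% of the exon bases of MCM7 and 23.6% of those of MCM2 are shared with neighbouring genes. The length used is that of all annotated exons joined, not of the transcript expressed. It was 7338 bases for MCM5, 6973 for MCM4 and 3650 for MCM3, and the order of the subunits depends on it.

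**Figure D4:**
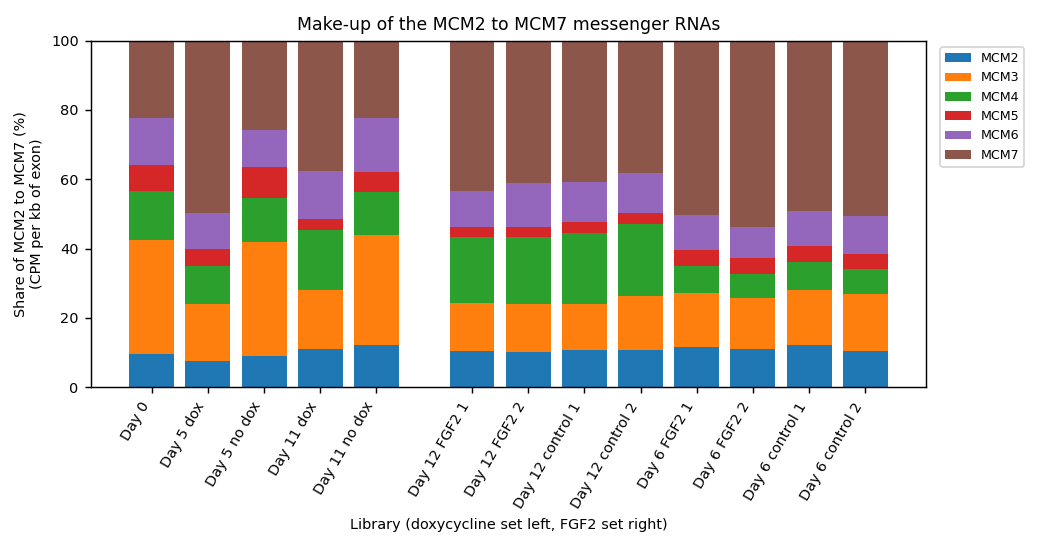
Share of each of MCM2 to MCM7 in their summed level, in percent of CPM per kilobase of exon, for the 5 libraries of the doxycycline set (left) and the 8 of the FGF2 set (right). MCM7 takes 22.2% to 25.9% in the 3 uninduced libraries and 37.7% to 53.6% in the 10 induced ones, and MCM4 is widest in the 4 day 12 libraries.

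In the fits made here over all 8 libraries, no effect of FGF2 on these genes was called at this depth and spread. With late FGF2, 0 of the 36 genes were called on day 12 by edgeR's quasi-likelihood test, against 2.17% of all genes tested (1.63% higher and 0.536% lower), and 4 had an unadjusted p under 0.05. DESeq2 and limma on the same counts also called 0. The median log2 change was -0.0010, against 0 over all genes tested, and the median SE was 0.15. The summed level of the 36 genes was 528 and 534 CPM in day 12 FGF2 libraries, against 543 and 547 CPM in day 12 control libraries. E2F1 had 4.57 and 6.79 CPM with FGF2, against 3.81 and 6.83 CPM without, and PCNA had 26.9 and 28.8 CPM, against 26.4 and 25.4 CPM.

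The gene nearest to a call was CDT1, with 0.674 and 0.461 CPM in day 12 FGF2 libraries, against 1.42 and 1.02 CPM in day 12 control libraries (log2 -1.12 ± 0.34, adjusted p = 0.143 by edgeR). The groups did not overlap, but the values rest on 14 to 35 counts per library. It was called lower without day 6 FGF2 replicate 1 or without day 6 FGF2 replicate 2. Its log2 change was -1.12 in both fits, as with all libraries. Many more of all genes tested were called in those fits too, so the change of call is not particular to CDT1. Its cause was not tested. LIG1 had 24.4 and 23.8 CPM with FGF2, against 29.5 and 29.4 CPM without (log2 -0.29 ± 0.10, adjusted p = 0.252), and GINS2 had 6.21 and 5.21 CPM, against 7.87 and 6.96 CPM (log2 -0.38 ± 0.15, adjusted p = 0.320). E2F2 had 3 counts and 1 count with FGF2, against 0 in both control libraries. In the authors' deposited table from DESeq2, 0 of the 36 genes were called with late FGF2, against 4.71% of the 17705 genes in that table, with a lowest adjusted p of 0.0958 for LIG1. In the authors' deposited table from limma, LIG1 alone was called, with an adjusted p of 0.0282, against 7.38% of the 17705 genes.

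With early FGF2, 0 of the 36 genes were called on day 6 (edgeR; lowest adjusted p = 0.927), against 0% of all genes tested, and 2 had an unadjusted p under 0.05. DESeq2 and limma on the same counts also called 0 of the 36, as did both of the authors' deposited tables. The median log2 change was -0.03 with a median SE of 0.13, and the summed level was 1295 and 1267 CPM in day 6 FGF2 libraries, against 1354 and 1265 CPM in day 6 control libraries. RRM1 had 69.0 and 71.1 CPM with FGF2, against 83.1 and 81.3 CPM without (log2 -0.23 ± 0.08, unadjusted p = 0.0088 by edgeR). CCNE1 had 7.00 and 5.26 CPM, against 8.38 and 7.55 CPM (log2 -0.38 ± 0.17, unadjusted p = 0.048). Neither passed the adjustment. Without day 6 FGF2 replicate 1, 1 of the 36 genes was called, CCNE1, lower with early FGF2 (log2 -0.60 ± 0.20, adjusted p = 0.048), and 2523 of 21062 genes were called in all.

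The difference between the late and the early effect was called for 0 of the 36 genes by edgeR, against 0.73% of all genes tested (0.645% higher and 0.0844% lower), with 3 at an unadjusted p under 0.05 and 0 called by DESeq2 or limma. CCNE1 was nearest (log2 +0.68 ± 0.26, adjusted p = 0.517). It was called without day 6 FGF2 replicate 1 (log2 +0.90 ± 0.26), but many more of all genes tested were called in that fit too. Among the other genes of these pathways, 1 was called with late FGF2. ASF1A, a histone chaperone that works with CAF-1, had 56.1 and 53.8 CPM in day 12 FGF2 libraries, against 38.4 and 34.3 CPM in day 12 control libraries (log2 +0.60 ± 0.10, adjusted p = 0.0042), and 40.4 and 46.6 CPM in day 6 FGF2 libraries, against 39.8 and 46.1 CPM in day 6 control libraries. Its groups were apart on day 12 and overlapped on day 6, while the difference between the late and the early effect was not called (adjusted p = 0.126).

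**Figure D5:**
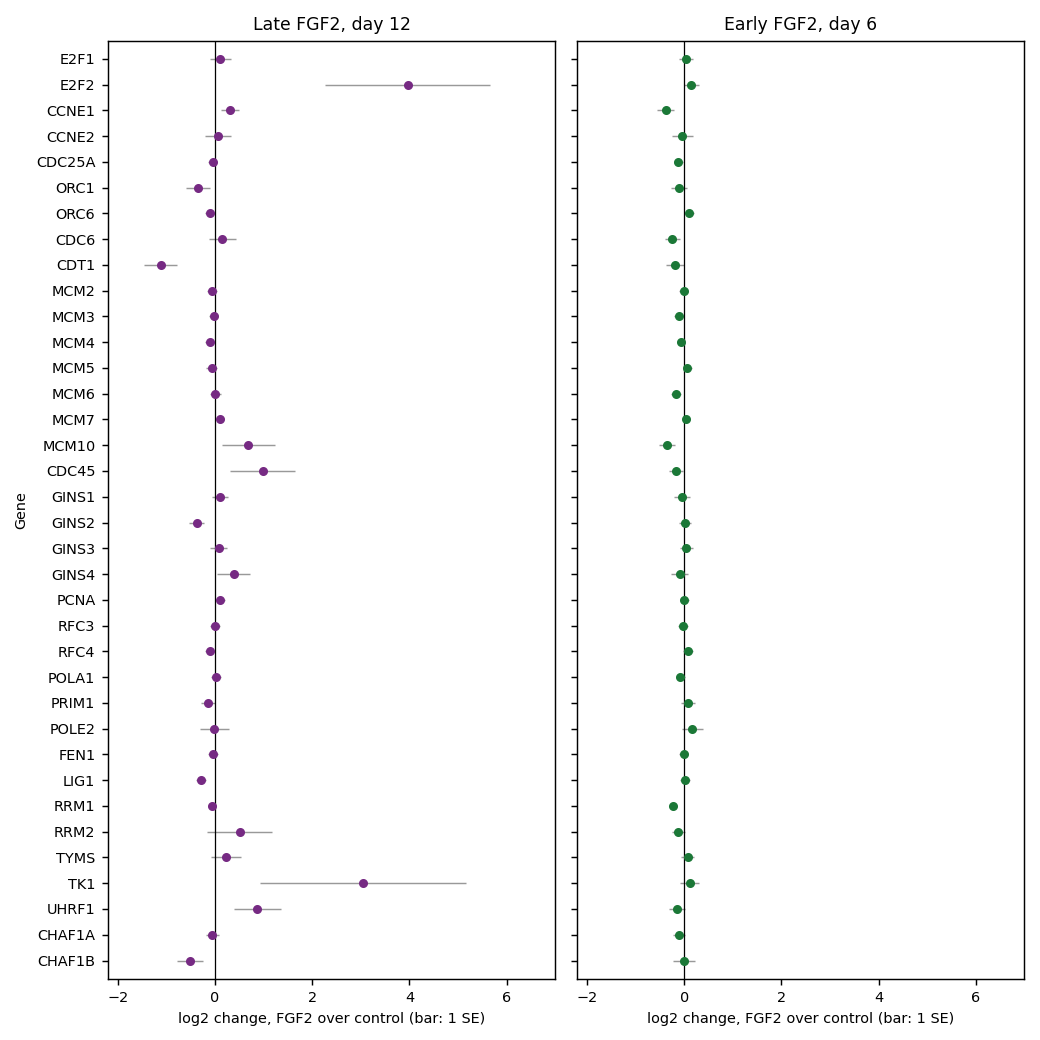
Log2 change of each of the 36 genes with FGF2 over control, late on day 12 (left) and early on day 6 (right), with bars of 1 SE from the edgeR fit on 2 libraries per group. Most points lie within 0.5 of 0 on both sides. E2F2 and TK1 stand out on the left only as fits on 4 and 2 counts with FGF2, against 0 in control, and no gene was called in either panel.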

How the data were processed

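RNA from 13 libraries in 9 groups was sequenced as single-end reads of 50 cycles with a TruSeq RNA v2 kit, per the labels' protocols. The authors deposited raw gene counts, and the submitters' processing notes name Subread, featureCounts 1.5.0 and the build GRCh38. The kit does not mark strand, and the strand setting of the counting is not given in the sources used here, so reads of overlapping genes cannot be told apart. The authors also deposited linear normalised signal values from limma voom for the doxycycline set, used here only as an alternative, and log2 fold changes with adjusted p-values from DESeq2 and limma for the FGF2 comparisons. The authors' comparison tables hold 16 per-sample columns that were not used.

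Counts of the FGF2 set were filtered with filterByExpr (20142 genes), scaled by TMM and fitted over all 8 libraries with edgeR 4.0.16 (quasi-likelihood test, Benjamini-Hochberg adjustment, adjusted p under 0.05) in R 4.3.3, with DESeq2 1.42.0 and limma 3.58.1 as alternatives. The doxycycline set was scaled by TMM and compared by CPM, with 1 CPM added for the 4-fold rule at 10 CPM. The 95% intervals and the floor of 3 counts cover counting error only. Exon lengths, overlaps and gene coordinates are from GENCODE on GRCh38, and promoter sequences from RefSeq on GRCh38.p14. The 36 genes are all described, and of each other pathway list up to 3 called genes in each direction were named, those with the highest mean CPM over the FGF2 set, except 1 gene that is not reported here. The genes and lists were chosen with earlier results of these data known. The statistics were tested on simulated data.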

Additional observations from a re-analysis of the deposited data

Results flagged for a closer look

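Between day 11 and day 5 of the doxycycline set, 10 of the 36 genes moved in opposite directions in the 2 arms, lower with doxycycline and higher without it, with counting intervals on both sides that leave out a ratio of 1. These are MCM3, MCM7, MCM10, GINS2, GINS4, PCNA, FEN1, RRM2, TYMS and UHRF1. Some moved little, such as MCM7, at 1.03 of its day 5 level without doxycycline (1.002 to 1.063). FEN1 was at 0.89 of its day 5 level with doxycycline (0.806 to 0.981). UHRF1 was at 0.472 of its day 5 level with doxycycline (0.289 to 0.751) and at 2.60 of it without (2.26 to 2.98). RRM2 was at 0.277 of its day 5 level with doxycycline (0.212 to 0.357) and at 1.67 of it without (1.57 to 1.79). The reverse pattern was seen for 1 gene, CCNE1, at 1.35 of its day 5 level with doxycycline (1.12 to 1.62) and at 0.717 without (0.649 to 0.793). Of all 13607 genes with at least 10 CPM in any of the 4 libraries, 21.6% showed the first pattern and 11.7% the reverse. With the day 0 library in place of the day 5 library without doxycycline, which held 15.0% mitochondrial counts, a setting chosen after seeing the data, the first pattern was left for 1 of the 36 genes, UHRF1, against 16.2% of 13463 genes, and the reverse was seen for 5 (CCNE1, CDC25A, PRIM1, LIG1 and CHAF1B), against 11.6%. The first count thus rests on that day 5 library. Each condition has 1 library, the intervals cover counting error only, and the difference between the arms was not tested.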

How the results depend on the processing

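The count of 33 genes called between day 12 and day 6 was the same with DESeq2, limma voom, DESeq2's size factors, library totals and no filter, and was 31 to 34 when any 1 library was left out (2 to 3 higher, 29 to 31 lower). Same-numbered libraries deviated together only weakly (correlations 0.0111 to 0.225), so the numbers were not taken as pairs. With the replicate block the count was 34, CHAF1B being called lower (adjusted p = 0.0442, edgeR), and it was 0 for late FGF2, early FGF2 and their difference. Among the FGF2 comparisons, leaving out 1 library changed only the calls of CDT1 and CCNE1 that are described above. More of all genes tested were called in those fits too, and the cause was not tested. In the doxycycline set, the day 5 count of 18 was 11 with 5 CPM added and 29 at 2-fold. Day 11 against day 5 with doxycycline gave 2 genes at 2-fold and 1 with the authors' normalised values, and day 5 without doxycycline against day 0 gave 6 at 2-fold and 1 with those values, while day 11 without doxycycline against day 0 gave 0 under both. Day 11 against day 5 without doxycycline gave 6 higher and 1 lower at 2-fold. The authors' normalised values move the median of all genes on day 5 from 0.23 to 0.63 (log2). Levels under about 1 CPM rest on few counts, which limits the size of the largest folds.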

Other observations

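The 2 sets differed in the level of these genes at a similar stage. The 36 genes summed to 1354 and 1265 CPM in day 6 control libraries and to 587 CPM in the day 5 library with doxycycline. E2F1 had 152 and 136 CPM on day 6 and 18.5 CPM on day 5 with doxycycline, and NEUROG2 had 7708 and 7544 CPM and 1564 CPM. On day 12 and day 11 the sums were closer, at 543 and 547 CPM in day 12 control libraries and 490 CPM in the day 11 library with doxycycline. The sets were scaled separately, and the sequencing run, the day and the line named in the titles changed together and cannot be told apart.

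Other regulators of the step from G1 to S went different ways in the doxycycline set, which has 1 library per condition. RB1, the repressor of E2F factors, had 33.3 CPM at day 0. It had 120 CPM with doxycycline on day 5, against 19.9 CPM without, a ratio of 6.01 (5.54 to 6.54), and 68.6 CPM with doxycycline on day 11, against 36.3 CPM without, a ratio of 1.89 (1.76 to 2.03). It was at least 4-fold higher with doxycycline on day 5, as were 12.6% of all genes counted and 0 of the other genes of the 4 pathway lists, but its ratio to day 0 was 3.59 (3.38 to 3.82), under 4-fold. Of the 15 other E2F, RB and G1/S genes at 10 CPM, 4 were at least 4-fold lower with doxycycline on day 5, against 11.5% of all genes counted. E2F7, a repressor that E2F factors induce, had 48.6 CPM at day 0, and 3.29 CPM with doxycycline on day 5, against 43.8 CPM without. On day 11 it had 0.576 CPM with doxycycline, against 68.4 CPM without. RB1 and E2F7 were chosen after their values were seen.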
